A study of Mus musculus with 22 samples.

Results

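Type I interferon-stimulated genes, a set of 38 genes whose transcription is switched on by interferon-alpha and interferon-beta, were followed in mouse liver. The members were chosen by gene symbol, as the rows of both deposited count tables that carry one of the 38 listed symbols; all 38 were found, among 45777 genes listed. The study sequenced polyA-selected, strand-specific liver RNA of male wild-type C57BL/6J mice in 22 libraries, in 2 cohorts of 11 that the labels call batches. In the high-fat-diet (HFD) cohort, labelled as the fatty liver disease model, 4 libraries came from mice on HFD given DTMB, 4 from mice on HFD given vehicle and 3 from mice on normal diet given vehicle. In the cohort fed a methionine- and choline-deficient (MCD) diet, labelled as the steatohepatitis model, 3 libraries came from mice on MCD diet given DTMB, 4 from mice on MCD diet given vehicle and 4 from mice on normal diet given vehicle. DTMB, a compound known here only by its code name, was dosed orally at 10 mg/kg daily. No transgene or deletion is labelled in any group; age and length of feeding are not given in the labels used here. Total counts per library were 50078966 to 66727450. Hepatocyte markers were abundant in every library, with 75300 to 119000 summed CPM (read counts scaled to library size) for 8 genes such as Alb and Ttr. Levels below are CPM scaled by TMM (trimmed mean of M-values) within a cohort, so a level in one cohort is not comparable with a level in the other. CPM is not corrected for gene length, so levels of different genes are not compared. The labels used here number the replicates and name no animals.

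As background, type I interferons bind a receptor made of Ifnar1 and Ifnar2, whose kinases Jak1 and Tyk2 phosphorylate Stat2. Stat2 and Irf9 are subunits of the complex ISGF3, which binds the interferon-stimulated response element (ISRE) in the promoters of its target genes. The induced proteins sense foreign RNA and DNA, block translation and replication of viruses, or feed back on the pathway itself. In liver, hepatocytes, Kupffer cells and endothelial cells can all respond to type I interferon.

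The promoters were searched for the ISRE, because it is the sequence that ISGF3 recognises. Promoter windows ran from 250 bases before to 50 bases after the transcription start in the RefSeq table of the GRCm38.p6 assembly (mm10), which had an entry for 29 of the 38 members. The ISRE core, written GAAA, then any 2 bases, then GAAA, on either strand, was present in 14 of these 29 members (48.3%), against 3.99% of 27025 genes in the table. The longer form, the same core followed by CT, was present in 8 of 29 members (27.6%), against 0.303% of genes. The gamma-activated site, TTCNNNGAA on either strand, was present in 5 of 29 (17.2%), against 9.55% of genes. A match describes the letters in the window and does not show binding. One stretch each from 8 of these members follows, with the core in capitals and its place on mm10. Each is printed 5′ to 3′ on the strand that reads GAAA at both ends of the core.
Stat2 (chr10:128270266-128270295, minus strand): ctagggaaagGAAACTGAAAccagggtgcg
Ifit1 (chr19:34640794-34640823, minus strand): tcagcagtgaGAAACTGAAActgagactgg
Ifit3 (chr19:34583363-34583392, minus strand): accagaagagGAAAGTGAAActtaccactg
Oas1a (chr5:120907526-120907555, minus strand): cccttctcggGAAATGGAAActgaaaatct
Ifih1 (chr2:62646206-62646233, minus strand): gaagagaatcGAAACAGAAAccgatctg
Isg15 (chr4:156200865-156200894, minus strand): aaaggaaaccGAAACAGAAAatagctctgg
Rsad2 (chr12:26456553-26456582, plus strand): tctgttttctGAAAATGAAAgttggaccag
Bst2 (chr8:71537583-71537612, minus strand): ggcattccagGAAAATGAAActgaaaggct
The stretch of Ifit3b was identical to that of Ifit3 and that of Oas1g to that of Oas1a, over all 30 bases. Reads of such close copies may have been divided between them by the submitters' counting, which is not given in the sources used here, so values of Ifit3, Ifit3b, Oas1a and Oas1g are uncertain for the single gene.

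Not every member that changed held the core. The first 250 bases of the promoter windows of 2 members that rose on HFD are shown, Ifit3 with 2 cores and Samd9l with none, each on the strand of its gene. Capitals mark the core, which reads TTTC, 2 bases, TTTC on this strand.
Ifit3 (chr19:34583279-34583528, plus strand): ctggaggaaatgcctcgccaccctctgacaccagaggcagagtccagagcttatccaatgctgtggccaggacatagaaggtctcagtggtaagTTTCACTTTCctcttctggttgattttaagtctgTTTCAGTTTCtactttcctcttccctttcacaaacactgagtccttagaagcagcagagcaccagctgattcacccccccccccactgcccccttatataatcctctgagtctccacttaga
Samd9l (chr6:3399572-3399821, minus strand): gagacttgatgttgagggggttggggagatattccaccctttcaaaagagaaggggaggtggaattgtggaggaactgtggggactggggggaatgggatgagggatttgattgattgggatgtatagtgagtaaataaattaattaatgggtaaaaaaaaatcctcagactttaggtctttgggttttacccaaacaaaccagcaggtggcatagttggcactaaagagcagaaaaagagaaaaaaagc
In Ifit3 the cores began at positions -156 and -122 relative to the start. The absence of a match says only that these letters are not in this window.

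Libraries that stood apart bear on every comparison. Pancreatic acinar transcripts, a list of 18 digestive enzyme genes and the like, summed to more than 100 CPM in 6 libraries and to at most 25.2 CPM in each of the others. These were HFD DTMB replicate 3 (2120 CPM), HFD vehicle replicates 1 and 4 (498 and 3270 CPM), replicates 1 and 3 of its normal-diet group (1550 and 1400 CPM) and normal-diet replicate 4 of the MCD cohort (545 CPM). In the MCD cohort, DTMB replicate 1 was the highest of its group in 37 of 38 members, and normal-diet replicate 2 was the highest of its group in 37 of 38 members. Relative to the normal-diet mean of the cohort, the median member stood at 1.79 in DTMB replicate 1, against 0.76 and 0.769 in the other DTMB libraries, and at 1.70 in normal-diet replicate 2, against 0.714, 0.859 and 0.717 in the other normal-diet libraries. The summed level of 12 macrophage markers was also highest in those libraries within their groups: 724 CPM in DTMB replicate 1 against 461 and 425 CPM, and 624 CPM in normal-diet replicate 2 against 224 to 226 CPM. The part of macrophage number or acinar tissue in the interferon-stimulated gene levels was not tested. In bulk liver RNA, fewer cells of a type and less RNA per cell cannot be told apart.

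**Figure D1:**
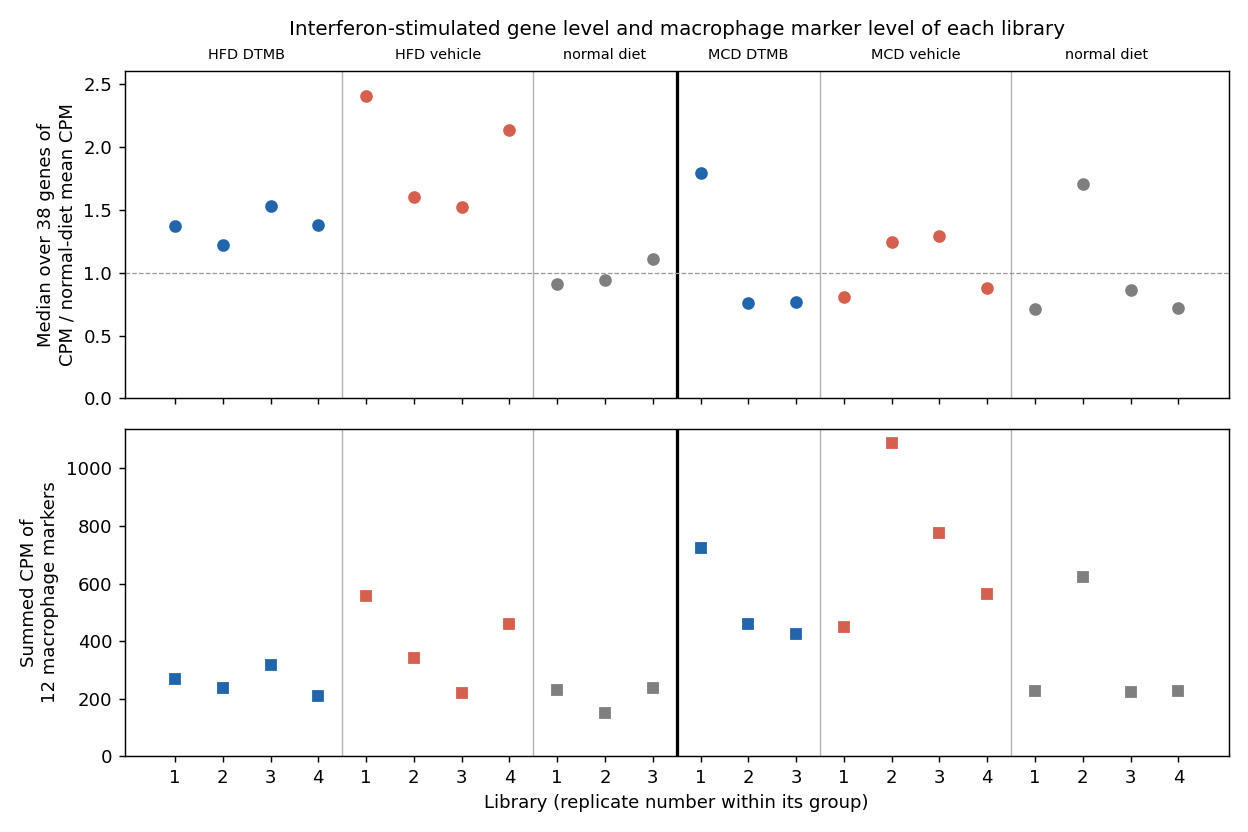
Each point is one library; the upper axis gives the median over the 38 genes of CPM divided by the normal-diet mean of the same cohort, and the lower axis the summed CPM of 12 macrophage markers. HFD vehicle libraries stand at 1.52 to 2.40 and their normal-diet libraries at 0.908 to 1.11, while MCD DTMB replicate 1 (1.79) and MCD-cohort normal-diet replicate 2 (1.70) stand above the other libraries of their groups in both panels.

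In HFD vehicle livers, 29 of the 38 members were higher than in normal-diet livers and none was lower, at an adjusted p under 0.05 in edgeR's quasi-likelihood test with Benjamini-Hochberg adjustment over all genes. That is 76.3% of the members, against 15.2% of the 15597 genes tested that were called higher. The members were chosen with earlier results of these data known, so this contrast may partly reflect that choice. The median log2 fold change of the members was 1.01, and that of all genes tested was 0.0152. Changes of single genes are given below as log2 fold changes ± SE. Epsti1 was the only one of the 29 in which HFD vehicle and normal-diet libraries overlapped. How many of all genes called higher separated in this way was not counted. In HFD DTMB livers, 13 members were lower than in HFD vehicle livers and none was higher, which is 34.2% of members against 6.04% of all genes tested called lower and 6.64% called higher. The median log2 fold change for DTMB was -0.38, and that of all genes was -0.015. Both comparisons rest on the same HFD vehicle libraries, so their opposite signs are not separate evidence.

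**Figure D2:**
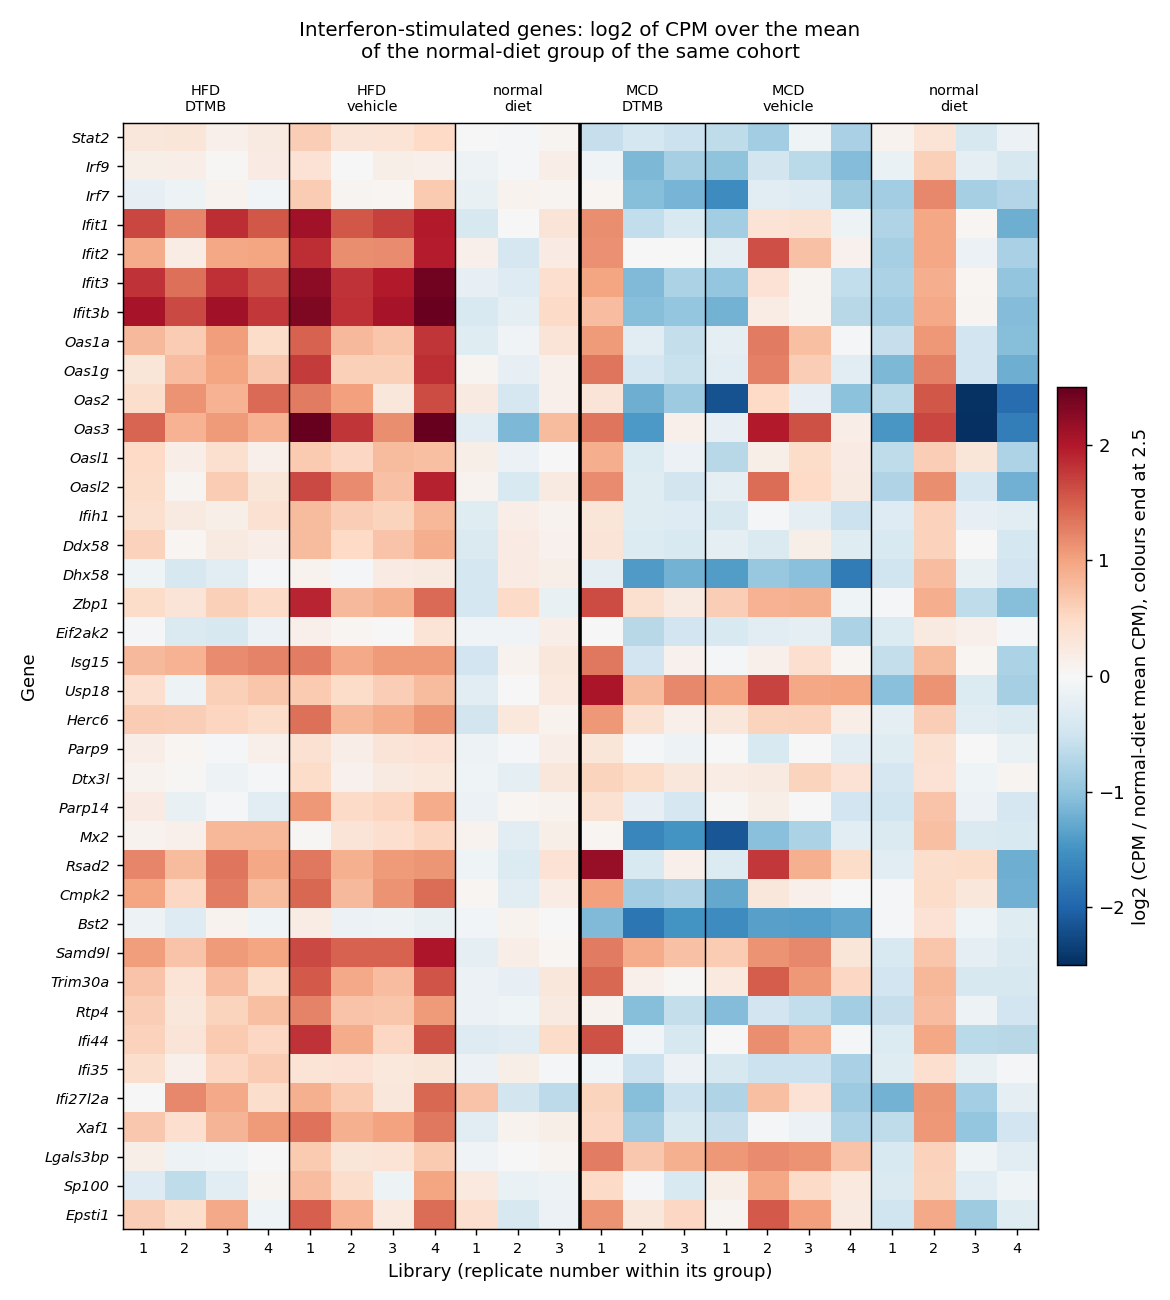
Rows are the 38 genes and columns the 22 libraries; colour is the log2 of CPM over the mean of the normal-diet group of the same cohort. Ifit1, Ifit3 and Ifit3b are red across all HFD vehicle and HFD DTMB libraries, whereas MCD-cohort libraries differ among themselves, with DTMB replicate 1 and normal-diet replicate 2 red in most rows and Bst2 blue in all MCD-diet libraries.

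HFD vehicle replicates 1 and 4, both with acinar transcripts, were the highest of their group in 17 and 19 of the 38 members. HFD vehicle replicates 2 and 3, with no more than 11.3 CPM of acinar transcripts, lay above every normal-diet library in 31 and 30 of 38 members. The matching share of all genes was not counted, and normal-diet replicates 1 and 3 carried acinar transcripts themselves. The summed macrophage markers were 270, 236, 318 and 210 CPM in HFD DTMB livers, 555, 340, 220 and 459 CPM in HFD vehicle livers and 230, 151 and 237 CPM in normal-diet livers. For 8 monocyte markers the sums were 6.65 to 9.81 CPM with DTMB, 8.34 to 23.2 CPM with HFD vehicle and 4.70 to 7.31 CPM on normal diet. Both lists were thus highest in HFD vehicle replicates 1 and 4. HFD vehicle replicate 3 had a macrophage sum within the normal-diet range, and its median member was at 1.52 of the normal-diet mean. Its monocyte sum of 8.34 CPM was above the normal-diet range. The part of both lists and of acinar tissue in the result was not tested.

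Among the transcription factors, Stat2, a subunit of ISGF3, had 31.2, 31.5, 27.8 and 30.03 CPM in HFD DTMB livers, 39, 31.9, 32.3 and 36.1 CPM in HFD vehicle livers and 25.2, 24.8 and 26.7 CPM in normal-diet livers. The HFD vehicle libraries lay above those of both other groups. Stat2 rose on HFD with a log2 fold change of 0.45 ± 0.083 (SE, adjusted p = 0.00229), and the DTMB difference of -0.21 ± 0.076 did not pass (adjusted p = 0.0877). Irf9, its partner, was not called on HFD (0.17 ± 0.097, adjusted p = 0.218), nor was Irf7, which drives interferon gene transcription (0.38 ± 0.15, adjusted p = 0.0846). With DTMB, Irf7 differed from HFD vehicle by -0.46 ± 0.14 (adjusted p = 0.0531) and Irf9 by -0.030 ± 0.090 (adjusted p = 0.852).

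The IFIT family, whose proteins bind viral RNA and block its translation, showed the largest rise of any role group by median (1.99 on the log2 scale, 4 of 4 members called). The genes lie side by side on chromosome 19, with Ifit1 at chr19:34640889-34650009 and Ifit3 at chr19:34583119-34588982. Ifit1 had 27, 19.8, 30.4 and 24.8 CPM in HFD DTMB livers, 36.3, 24.9, 27.8 and 33.2 CPM in HFD vehicle livers and 6.43, 8.41 and 10.5 CPM in normal-diet livers. Ifit3 had 27, 19.99, 27.4 and 23.5 CPM in HFD DTMB livers, 36.1, 27.1, 30.6 and 40.8 CPM in HFD vehicle livers and 6.67, 6.14 and 10.3 CPM in normal-diet livers. For the near copy Ifit3b, the values were 12.2, 9.18, 12.6 and 10.04 CPM with DTMB, 14.9, 10.5, 12.3 and 16.3 CPM with vehicle and 2.26, 2.48 and 4.08 CPM on normal diet. In all of these genes the libraries of both HFD groups lay above all normal-diet libraries, and the DTMB libraries overlapped the vehicle libraries. The log2 fold changes on HFD were 1.85 ± 0.19 (SE, adjusted p = 5.91e-05) for Ifit1, 2.13 ± 0.20 (SE, adjusted p = 3.47e-05) for Ifit3 and 2.20 ± 0.22 (SE, adjusted p = 4.9e-05) for Ifit3b. For DTMB against HFD vehicle they were -0.26 ± 0.17 for Ifit1 (adjusted p = 0.31), -0.46 ± 0.17 for Ifit3 (adjusted p = 0.0947) and -0.29 ± 0.19 for Ifit3b (adjusted p = 0.303), none of which passed. Ifit2 rose on HFD (1.58 ± 0.26 SE, adjusted p = 0.00105) and fell with DTMB (-0.78 ± 0.23 SE, adjusted p = 0.0439), the DTMB replicate 2 library being the lowest at 3.08 CPM.

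All 6 members of the OAS family rose on HFD, with a median log2 fold change of 1.29. Oas1a, Oas1g, Oas2 and Oas3 make short oligoadenylates that activate RNase L, while the OAS-like protein Oasl1 is known in mouse as a brake on Irf7 translation. Oas1a had 3.06, 2.72, 3.57 and 2.4 CPM in HFD DTMB livers, 4.87, 3.08, 2.82 and 6.04 CPM in HFD vehicle livers and 1.41, 1.63 and 2.19 CPM in normal-diet livers. Libraries of both HFD groups lay above normal diet, and the DTMB and vehicle libraries overlapped. Oas1a rose by 1.27 ± 0.27 (SE, adjusted p = 0.00516) on HFD and differed by -0.52 ± 0.24 with DTMB (adjusted p = 0.171). The OAS-like genes were the family members that fell with DTMB. Oasl2 had 3.45, 2.64, 3.9 and 3.11 CPM in HFD DTMB livers, 7.88, 5.68, 4.15 and 9.49 CPM in HFD vehicle livers and 2.66, 1.94 and 2.92 CPM in normal-diet livers, and the highest DTMB library lay below the lowest vehicle library. Its log2 fold change was 1.44 ± 0.26 (SE, adjusted p = 0.00199) on HFD and -1.05 ± 0.23 (SE, adjusted p = 0.0186) with DTMB. Oasl1 rose by 0.68 ± 0.11 (SE, adjusted p = 0.000995) and fell with a log2 fold change of -0.38 ± 0.10 (SE, adjusted p = 0.0337). Oas3 had the most negative DTMB value of all members, -1.10 ± 0.39, but its adjusted p was 0.0803 and its highest group mean in the cohort was 1.91 CPM.

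Among the nucleic acid sensors, 3 of 5 rose on HFD and 4 of 5 fell with DTMB. Ifih1, which encodes the RNA sensor MDA5, had 37.4, 33, 31.4 and 36.6 CPM in HFD DTMB livers, 48.8, 43.1, 41.3 and 50.4 CPM in HFD vehicle livers and 22.9, 31.9 and 30.03 CPM in normal-diet livers. The vehicle libraries stood above those of both other groups. Ifih1 rose by 0.70 ± 0.12 (SE, adjusted p = 0.00129) on HFD and its DTMB log2 fold change was -0.41 ± 0.11 (SE, adjusted p = 0.0325). Ddx58, which encodes RIG-I, rose (0.74 ± 0.15 SE, adjusted p = 0.00434) and fell with DTMB (-0.47 ± 0.14 SE, adjusted p = 0.0461), as did Zbp1, a sensor of Z-form nucleic acid (1.33 ± 0.27 SE, adjusted p = 0.00371 on HFD, -0.86 ± 0.24 (SE, adjusted p = 0.0386) with DTMB). Eif2ak2, the RNA-activated kinase PKR that halts translation, was not called on HFD (0.13 ± 0.11, adjusted p = 0.409) but was lower with DTMB (-0.37 ± 0.10 SE, adjusted p = 0.0403). Dhx58, the RIG-I relative LGP2, passed in neither comparison, with 0.13 ± 0.14 on HFD (adjusted p = 0.529) and -0.33 ± 0.13 with DTMB (adjusted p = 0.112).

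Of the ISG15 system, all 3 members rose on HFD. Isg15, a ubiquitin-like protein that is joined to other proteins, had 10.6, 10.9, 13.7 and 14.2 CPM in HFD DTMB livers, 14.6, 11.6, 12.6 and 12.6 CPM in HFD vehicle livers and 4.32, 6.41 and 7.32 CPM in normal-diet livers. Both HFD groups lay above normal diet and overlapped each other. Isg15 rose by 1.10 ± 0.17 (SE, adjusted p = 0.000744) on HFD, and its DTMB difference was -0.055 ± 0.15 (adjusted p = 0.839). Herc6, the ligase that attaches Isg15 in mouse, had 15.8, 15.5, 14.9 and 13.9 CPM in HFD DTMB livers, 26.5, 18.2, 19.5 and 22 CPM in HFD vehicle livers and 7.45, 12.3 and 10.9 CPM in normal-diet livers, so that the DTMB libraries lay between the other groups without overlap. Herc6 rose by 1.08 ± 0.16 (SE, adjusted p = 0.000615) on HFD and fell with a log2 fold change of -0.52 ± 0.15 (SE, adjusted p = 0.0394) with DTMB. Usp18, which removes Isg15 and dampens signalling at Ifnar2, rose (0.64 ± 0.17 SE, adjusted p = 0.0178) and was not called with DTMB (-0.21 ± 0.16, adjusted p = 0.397).

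Parp14, an enzyme that attaches single ADP-ribose units to proteins, had the smallest p of any member for DTMB. It had 34.1, 26.2, 28.6 and 24.2 CPM in HFD DTMB livers, 62.9, 41.1, 42.8 and 56.7 CPM in HFD vehicle livers and 26.7, 30.5 and 31.7 CPM in normal-diet livers. The DTMB libraries lay below all vehicle libraries and overlapped normal diet. Its log2 fold change was -0.85 ± 0.14 (SE, adjusted p = 0.00987) with DTMB and 0.78 ± 0.16 (SE, adjusted p = 0.00371) on HFD, and the difference of HFD DTMB from normal diet was -0.067 ± 0.16 (adjusted p = 0.786). Parp9, a relative that works in a pair with the ubiquitin ligase Dtx3l, had 74.4, 69, 65.3 and 72.9 CPM in HFD DTMB livers, 86.1, 74.4, 83.4 and 84.9 CPM in HFD vehicle livers and 60.6, 64.3 and 74.2 CPM in normal-diet livers. Parp9 rose slightly on HFD (0.31 ± 0.087 SE, adjusted p = 0.0207), and its DTMB difference of -0.22 ± 0.081 did not pass (adjusted p = 0.0853). Dtx3l passed in neither comparison (0.27 ± 0.12 on HFD, adjusted p = 0.115, and -0.28 ± 0.11 with DTMB, adjusted p = 0.11).

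Among 7 antiviral effectors, 5 rose on HFD and 2 of them, Samd9l and Trim30a, fell with DTMB. Samd9l, which restricts poxviruses and shuts down translation, had 19.7, 15.7, 19.9 and 19 CPM in HFD DTMB livers, 30.00, 26.7, 26.6 and 38.8 CPM in HFD vehicle livers and 8.18, 10.7 and 9.88 CPM in normal-diet livers. The groups did not overlap, with DTMB in between. Samd9l had the smallest p of any member on HFD, with a log2 fold change of 1.67 ± 0.15 (SE, adjusted p = 2.52e-05); the value was -0.71 ± 0.13 (SE, adjusted p = 0.011) for DTMB against HFD vehicle and 0.96 ± 0.15 (SE, adjusted p = 0.000552) for HFD DTMB against normal diet. Trim30a, a regulator of Toll-like receptor signalling, rose by 1.25 ± 0.21 (SE, adjusted p = 0.00135) and fell with a log2 fold change of -0.66 ± 0.19 (SE, adjusted p = 0.0419). Rsad2 (viperin), which makes a chain-terminating nucleotide, had 38, 28.5, 41.5 and 31.9 CPM in HFD DTMB livers, 40.7, 30.4, 34.1 and 35.4 CPM in HFD vehicle livers and 15.1, 12.8 and 21.1 CPM in normal-diet livers. Both HFD groups stood above normal diet and overlapped each other. Rsad2 rose by 1.10 ± 0.17 (SE, adjusted p = 0.000857) on HFD, and its DTMB difference was -0.0078 ± 0.16 (adjusted p = 0.981), with Cmpk2, the neighbouring gene for a mitochondrial nucleotide kinase, at 1.21 ± 0.19 (SE, adjusted p = 0.000919) on HFD and -0.29 ± 0.17 with DTMB (adjusted p = 0.274). Mx2, a dynamin-like GTPase, had 3.29, 3.38, 5.55 and 5.54 CPM in HFD DTMB livers, 3.19, 3.87, 4.18 and 4.54 CPM in HFD vehicle livers and 3.3, 2.59 and 3.44 CPM in normal-diet livers, which overlapped. Neither its HFD value (0.34 ± 0.21, adjusted p = 0.258) nor its DTMB value (0.17 ± 0.19, adjusted p = 0.58) passed. Bst2 (tetherin), which holds budding virus at the cell surface, was likewise not called (-0.060 ± 0.11 on HFD, adjusted p = 0.719, and -0.050 ± 0.10 with DTMB, adjusted p = 0.772). Rtp4 rose (0.95 ± 0.16 SE, adjusted p = 0.00108) and differed by -0.38 ± 0.14 with DTMB (adjusted p = 0.0895).

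**Figure D3:**
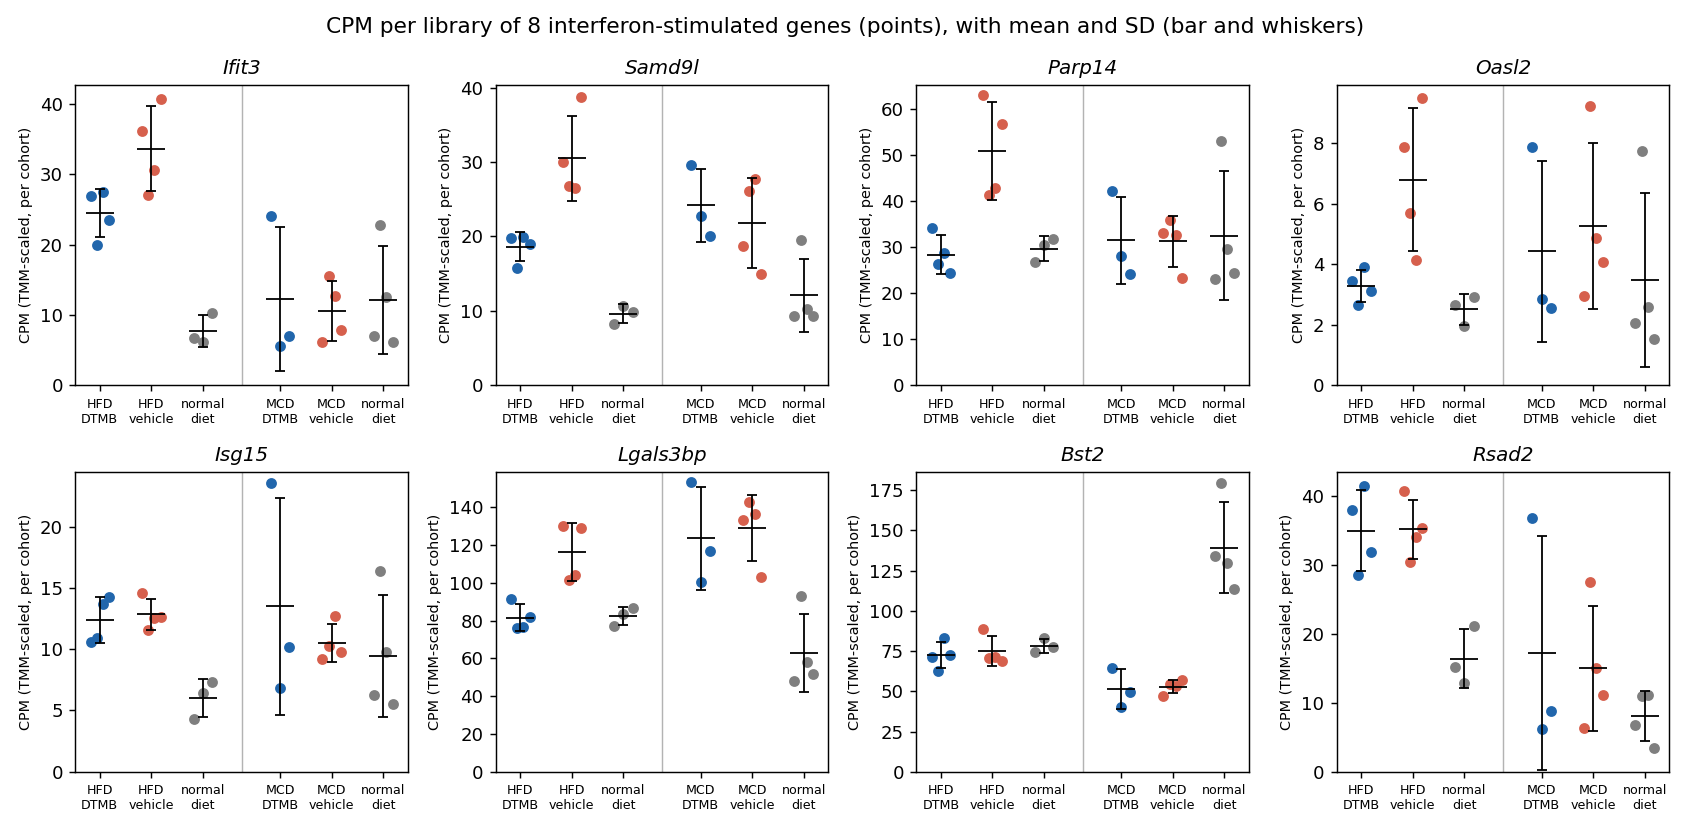
Points are single libraries of 8 genes on a CPM axis that starts at 0, bars the group mean and whiskers the SD. Samd9l and Parp14 are lower in all HFD DTMB libraries than in all HFD vehicle libraries, Rsad2 and Isg15 overlap between those groups, and Bst2 is lower in all MCD-diet libraries than in all normal-diet libraries of that cohort.

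The 7 remaining members are induced genes of mixed function, of which 5 rose on HFD and 2 fell with DTMB. Lgals3bp, a secreted glycoprotein that binds galectins, had 91.6, 75.9, 76.6 and 81.9 CPM in HFD DTMB livers, 130.2, 102, 104 and 129 CPM in HFD vehicle livers and 77.4, 83.4 and 86.5 CPM in normal-diet livers. The vehicle libraries stood above all others. Lgals3bp rose by 0.50 ± 0.11 (SE, adjusted p = 0.00515) on HFD, its DTMB log2 fold change was -0.51 ± 0.099 (SE, adjusted p = 0.0115), and HFD DTMB differed from normal diet by -0.017 ± 0.11 (adjusted p = 0.925). Sp100, a component of nuclear bodies, had 4.89, 3.93, 5.0 and 6.4 CPM in HFD DTMB livers, 10.4, 8.25, 5.54 and 12.1 CPM in HFD vehicle livers and 7.23, 5.43 and 5.59 CPM in normal-diet livers. All these groups overlapped; Sp100 was lower with DTMB (-0.84 ± 0.22 SE, adjusted p = 0.0299) and not called on HFD (0.58 ± 0.24, adjusted p = 0.0888). Ifi44 had 3.65, 3.08, 3.88 and 3.5 CPM in HFD DTMB livers, 8.6, 4.65, 3.52 and 7.38 CPM in HFD vehicle livers and 1.97, 2.05 and 3.37 CPM in normal-diet livers. It rose by 1.30 ± 0.29 (SE, adjusted p = 0.0064) on HFD, and its DTMB difference of -0.77 ± 0.26 did not pass (adjusted p = 0.0681). Xaf1, a pro-apoptotic protein, rose (1.15 ± 0.18 SE, adjusted p = 0.000744), as did Epsti1 (1.07 ± 0.33 SE, adjusted p = 0.0316) and Ifi35 (0.32 ± 0.11 SE, adjusted p = 0.0492), while Ifi27l2a was not called (0.86 ± 0.38, adjusted p = 0.111). With DTMB these genes ranged from -0.56 for Epsti1 to 0.12 for Ifi35 on the log2 scale and none passed.

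Livers of mice on HFD with DTMB were also set against normal-diet livers. There 12 members were higher and none lower, 31.6% of members against 15.7% of all genes called higher, with a median log2 fold change of 0.51 against 0.0115 for all genes. These were Ifit1, Ifit2, Ifit3, Ifit3b, Isg15, Herc6, Rsad2, Cmpk2, Samd9l, Rtp4, Ifi35 and Xaf1. All 4 IFIT genes were among them, at 1.59 ± 0.19 for Ifit1 and 1.91 ± 0.22 (SE, adjusted p = 0.000102) for Ifit3b, and so was Rsad2 (1.09 ± 0.17 SE, adjusted p = 0.000754). None of the 6 OAS members, the 5 sensors or the 3 ADP-ribosylation proteins passed, although every DTMB library of Oas1a, Oas1g, Oas2 and Oas3 lay above every normal-diet library.

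**Figure D4:**
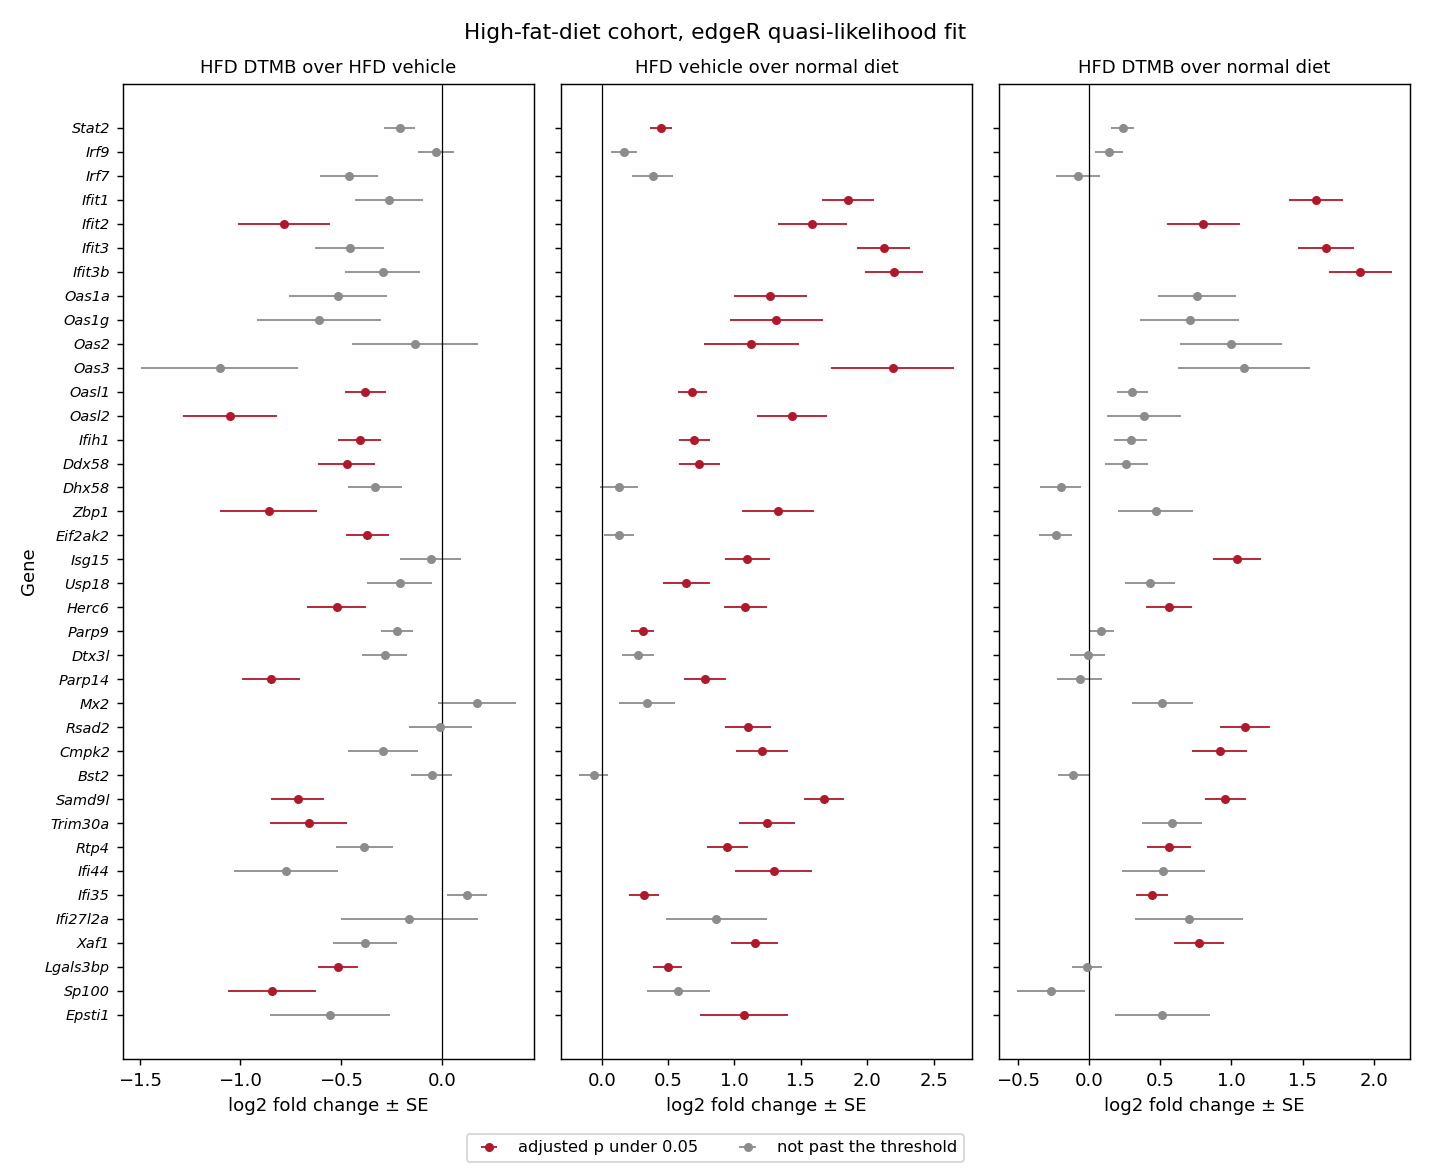
Points give the log2 fold change of each member and whiskers its SE in 3 comparisons of the HFD cohort; red points passed an adjusted p of 0.05. Of the 38 points, 13 are red and below 0 for DTMB over HFD vehicle, 29 are red and above 0 for HFD vehicle over normal diet, and 12 are red and above 0 for HFD DTMB over normal diet.

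The DTMB calls on HFD depended on single libraries. Without HFD vehicle replicate 1 or replicate 4, 3 members were called lower, and without DTMB replicate 2, 3 or 4, 4 members were. These were 7.89% and 10.5% of members. Over all genes, lower calls fell to 1.56% and 1.85% without the vehicle libraries and to 3%, 2.48% and 1.73% without the DTMB libraries. Parp14, Samd9l and Lgals3bp were called in every one of the 11 fits that left out one library. Without the acinar libraries, which leaves 3 DTMB, 2 vehicle and 1 normal-diet library, no member was called for DTMB and the median was -0.20, and 7 members were called on HFD with a median of 0.80. With 1 normal-diet library the spread comes from the DTMB and vehicle groups alone, and that library is assumed to vary like them. Those 7 were Ifit1, Ifit3, Ifit3b, Rsad2, Cmpk2, Samd9l and Trim30a. Without the acinar libraries, calls over all genes fell on HFD as well and none was left for DTMB. Scaled by library size alone, 22 members (57.9%) were called lower with DTMB, against 15.3% of all genes, and the median of all genes moved to -0.17.

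In MCD vehicle livers the members did not move one way. Compared with normal-diet livers of that cohort, 3 of 38 were higher (Lgals3bp, Samd9l and Usp18) and 5 were lower (Bst2, Dhx58, Ifi35, Irf9 and Stat2). These are 7.89% and 13.2% of members, against 20.3% and 21% of the 16037 genes tested, so the share called was below that of all genes in the fit of all 11 libraries. The median log2 fold change was 0.028 for members and 0.0039 for all genes. Scaled by library size alone, which moved the median of all genes to 0.47, 8 members were higher and 1 was lower. These were 21.1% and 2.63% of members, against 47.9% and 7.3% of all genes in that fit. Members varied more between libraries than most genes, with a median coefficient of variation of 50% in MCD DTMB livers, 27.8% in MCD vehicle livers and 47.5% in normal-diet livers, against 13.9%, 20.3% and 15.2% for all genes tested.

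Bst2 had the smallest p of any member on MCD diet. It had 64.6, 39.98 and 49.3 CPM in MCD DTMB livers, 47, 54.7, 53.5 and 56.8 CPM in MCD vehicle livers and 134, 179.5, 129.9 and 114 CPM in normal-diet livers, so that every library on MCD diet lay below every normal-diet library. Its log2 fold change was -1.39 ± 0.17 (SE, adjusted p = 6.25e-05) for MCD vehicle and -1.44 ± 0.18 (SE, adjusted p = 0.000138) for MCD DTMB, each against normal diet. Lgals3bp moved the other way, with 153, 100.4 and 117 CPM in MCD DTMB livers, 134, 143, 136 and 103 CPM in MCD vehicle livers and 48, 93.2, 58.3 and 51.8 CPM in normal-diet livers. Again no library on MCD diet overlapped normal diet, and Lgals3bp rose by 1.04 ± 0.21 (SE, adjusted p = 0.00214) with vehicle and 0.98 ± 0.22 (SE, adjusted p = 0.00593) with DTMB. Bst2, Lgals3bp and Dhx58 kept their calls for MCD vehicle in each of the 11 fits that left out one library.

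Dhx58, the RNA sensor LGP2, had 8.37, 3.75 and 4.38 CPM in MCD DTMB livers, 3.77, 5.19, 4.83 and 2.96 CPM in MCD vehicle livers and 7.01, 16.9, 8.77 and 7.1 CPM in normal-diet livers. It fell on MCD diet with a log2 fold change of -1.25 ± 0.33 (SE, adjusted p = 0.011). Ifi35 had 21, 15.1 and 19.8 CPM in MCD DTMB livers, 16.6, 15.2, 15.1 and 12.5 CPM in MCD vehicle livers and 17.8, 29.5, 19.3 and 21.3 CPM in normal-diet livers, and fell on MCD diet (-0.56 ± 0.17 SE, adjusted p = 0.0181). In both genes all vehicle libraries lay below all normal-diet libraries. The ISGF3 subunits Stat2 and Irf9 fell as well. Stat2 had 24.7, 27.3 and 25.5 CPM in MCD DTMB livers, 23.9, 20.4, 34.2 and 21 CPM in MCD vehicle livers and 39.5, 46.8, 28.1 and 33.5 CPM in normal-diet livers, with vehicle replicate 3 inside the normal-diet range. The log2 fold change was -0.57 ± 0.18 (SE, adjusted p = 0.0258) for Stat2 and -0.78 ± 0.26 (SE, adjusted p = 0.0299) for Irf9.

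Samd9l had 29.6, 22.8 and 20.1 CPM in MCD DTMB livers, 18.7, 26.1, 27.7 and 14.9 CPM in MCD vehicle livers and 9.23, 19.5, 10.2 and 9.32 CPM in normal-diet livers. Normal-diet replicate 2 lay inside the range of the vehicle group. Samd9l rose by 0.86 ± 0.27 (SE, adjusted p = 0.0224) with vehicle and 1.00 ± 0.28 (SE, adjusted p = 0.0185) with DTMB, each against normal diet. Usp18 rose by 1.20 ± 0.44 (SE, adjusted p = 0.0461) with vehicle and 1.44 ± 0.47 (SE, adjusted p = 0.0341) with DTMB. With one library left out, the vehicle value of Usp18 ran from 0.97 to 1.91 and passed in 2 of 11 fits, and the DTMB value ran from 1.01 to 2.15 and passed in 6 of 11; the highest of each came without normal-diet replicate 2. The IFIT genes, which had risen most on HFD, had no call on MCD diet. Ifit1 had 18.7, 5.44 and 6.44 CPM in MCD DTMB livers, 4.55, 10.7, 10.8 and 7.67 CPM in MCD vehicle livers and 4.94, 16.2, 8.68 and 3.6 CPM in normal-diet livers, a vehicle value of 0.012 ± 0.50 (adjusted p = 0.988). Ifit3 stood at -0.20 ± 0.52 (adjusted p = 0.783). None of the 6 OAS members and none of the 3 ADP-ribosylation proteins was called either, with Oas1a at 0.58 ± 0.52 (adjusted p = 0.391).

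Normal-diet replicate 2 weighed on these counts. Without it, 12 members were higher and 2 lower in MCD vehicle livers than in normal-diet livers, and the median log2 fold change was 0.51. The higher calls were then 31.6% of members, against 18.7% of all genes tested in that fit, and the lower calls 5.26% against 18.5%. Without both it and DTMB replicate 1, 15 were higher and 3 lower, 39.5% and 7.89% of members against 17.6% and 17.2% of all genes. This setting was chosen after seeing the data. Without MCD vehicle replicate 1 or replicate 2, 5 members were called in all, and without vehicle replicate 4, 4 were. In each of these fits at least 18.8% of all genes were called higher and at least 19% lower. The macrophage list summed to 724, 461 and 425 CPM in MCD DTMB livers, 448, 1090, 774 and 564 CPM in MCD vehicle livers and 226, 624, 224 and 225 CPM in normal-diet livers; its part in the result was not tested.

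With DTMB on MCD diet, no member passed against MCD vehicle, and 1 of 16037 genes tested did (0.00624%). Of the 38 members, 0 had an unadjusted p under 0.05 in edgeR, and DESeq2 also called 0. Log2 fold changes ran from -0.75 for Oas3 to 0.39 for Dhx58, with a median of 0.10 against 0.017 for all genes. The smallest p belonged to Ifi35, at 0.32 ± 0.18 (adjusted p = 0.923). Sp100 had 8.52, 5.94 and 4.73 CPM in MCD DTMB livers and 6.76, 12.1, 8.54 and 7.23 CPM in MCD vehicle livers (-0.44 ± 0.28, adjusted p = 0.923). Parp9 had 67, 52.5 and 49.5 CPM in MCD DTMB livers and 54, 41.6, 54.5 and 44.8 CPM in MCD vehicle livers (0.21 ± 0.17, adjusted p = 0.924). Dhx58 stood at 0.39 ± 0.36 (adjusted p = 0.933). In each of these genes the groups overlapped. Errors were wide, with an SE of 0.53 for Ifit1 and 0.55 for Ifit3 on the log2 scale, so changes of the size seen with DTMB on HFD were not detectable for them in this cohort. Without DTMB replicate 1 the median was -0.31, 34 of 38 members had negative values and none was called.

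MCD DTMB livers differed from normal-diet livers in 4 members. Lgals3bp, Samd9l and Usp18 were higher and Bst2 was lower, 7.89% and 2.63% of members against 16.2% and 16.4% of all genes tested (32.6% in either direction). Without normal-diet replicate 2, 8 members were higher (21.1%, against 15% of all genes in that fit) and 1 was lower (2.63%, against 14.6%). Scaled by library size alone, 6 were higher (15.8%, against 36.2% of all genes) and 1 lower (2.63%, against 6.84%). Bst2 and Lgals3bp were called in all 11 fits that left out one library.

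The diet effects of the cohorts were compared in one fit of all 6 groups, as the difference between HFD vehicle minus its normal diet and MCD vehicle minus its normal diet. For 12 members the HFD effect was the higher and for none the lower, 31.6% of members against 18.5% of the 16541 genes tested (35.3% in either direction). They were Stat2, Irf9, Ifit1, Ifit3, Ifit3b, Ifih1, Ddx58, Dhx58, Bst2, Rtp4, Ifi35 and Xaf1. The differences were greatest for Ifit3b (2.46 ± 0.63 SE, adjusted p = 0.00478) and Ifit3 (2.29 ± 0.62 SE, adjusted p = 0.00734), and Bst2 had the smallest p (1.30 ± 0.21 SE, adjusted p = 6.46e-05). Rsad2 and Trim30a had values of 0.18 ± 0.68 and 0.29 ± 0.50 and did not pass. Without MCD-cohort normal-diet replicate 2, 9 were higher and 2 lower (23.7% and 5.26%, against 17.4% and 15.1% of all genes), and Xaf1 stood at 0.80 (adjusted p = 0.105). With the acinar libraries left out, which leaves 2 HFD vehicle libraries and 1 of their normal-diet libraries, fewer members were called. Scaled by library size alone, 5 were higher and 1 lower (13.2% and 2.63%, against 10.7% and 29.6% of all genes). Diet and cohort cannot be told apart, since each diet was given in 1 cohort. The difference between the DTMB effects was called for no member and no gene, and 5 members had an unadjusted p under 0.05 in edgeR. DESeq2 called 36 genes and no member. The lowest p was that of Samd9l, whose DTMB effect differed by -0.84 ± 0.32 between HFD and MCD diet (adjusted p = 0.484), so a difference between the DTMB responses was not shown.

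**Figure D5:**
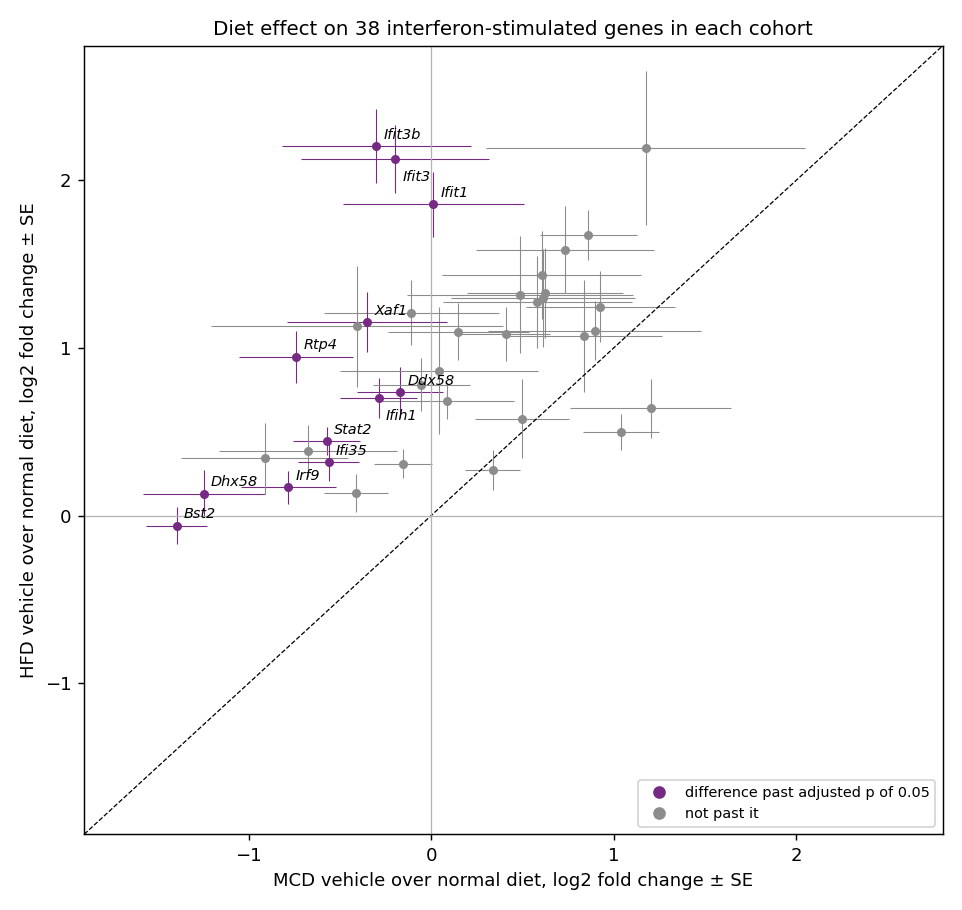
Each point is a member, with the log2 fold change of MCD vehicle over normal diet on the horizontal axis, that of HFD vehicle over normal diet on the vertical axis, SE as whiskers and equal effects on the dashed line. The 12 purple points passed the test of the difference; Ifit3 and Ifit3b lie farthest above the line and Bst2 is at -1.39 on the MCD axis.

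The rest of the pathway was read from a list of 61 genes. Of those tested, 20.5% were higher and 2.56% lower on HFD, against 15.2% and 12.6% of all genes. With DTMB on HFD 10.3% were lower, against 6.04%, and none was higher. On MCD diet 30% were higher and 20% lower, against 20.3% and 21% of all genes. None of the 18 type I interferon genes or 3 type II and III genes had enough counts to be tested. Ifnb1 had 3 counts in HFD DTMB replicate 1 and 0 in every other library, where a count of 0 allows up to 3 counts. Ifnk had 2 counts in HFD vehicle and 2 in MCD vehicle livers, and Ifnz had at most 4 in any group. Ifng, the type II interferon, had 12 counts in HFD vehicle livers, in replicates 1 and 4 (0.0922 and 0.0929 CPM), 2 in MCD DTMB livers and 0 in the other groups. These are the HFD vehicle libraries with acinar transcripts and the highest macrophage sums.

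Receptor genes were not called on HFD or with DTMB on HFD, with Ifnar1 at -0.13 ± 0.081 on HFD (adjusted p = 0.257) and Ifnar2 at -0.13 ± 0.095 (adjusted p = 0.344). On MCD diet, Ifnar2, the chain that binds Stat2, had 34.4, 30.4 and 31.8 CPM in MCD DTMB livers, 33.3, 34.7, 26.1 and 33.8 CPM in MCD vehicle livers and 75.7, 75.1, 64.8 and 68.9 CPM in normal-diet livers. All MCD-diet libraries lay below all normal-diet libraries, and the log2 fold change of MCD vehicle was -1.15 ± 0.11 (SE, adjusted p = 1.04e-05). Ifnar1 was not called (-0.13 ± 0.092, adjusted p = 0.271). The receptor chains Il10rb (1.46 ± 0.20 SE, adjusted p = 0.000147), Ifngr2 (0.89 ± 0.16 SE, adjusted p = 0.00106), Ifnlr1 (1.95 ± 0.70 SE, adjusted p = 0.0436) and Ifngr1 (0.44 ± 0.16 SE, adjusted p = 0.0493) rose on MCD diet. With DTMB on MCD diet no receptor passed.

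Among the transcription factors of the pathway list, Irf8 had 2.91, 2.21, 3.08 and 2.98 CPM in HFD DTMB livers, 6.74, 5.38, 2.61 and 7.46 CPM in HFD vehicle livers and 3.05, 2.48 and 2.94 CPM in normal-diet livers. Vehicle replicate 3 lay within the range of the other groups and the other vehicle libraries lay above it. Irf8 rose by 0.97 ± 0.28 (SE, adjusted p = 0.0231) on HFD, and its DTMB log2 fold change was -0.99 ± 0.26 (SE, adjusted p = 0.031). Irf2 (0.37 ± 0.10 SE, adjusted p = 0.0175) and Irf1 (0.78 ± 0.24 SE, adjusted p = 0.0287) also rose on HFD. Of 14 upstream sensors and adaptors, 4 rose on HFD (28.6%, against 15.2% of all genes). Among them were the kinase Ikbke (1.19 ± 0.24 SE, adjusted p = 0.00332) and the RNA receptor Tlr3 (0.85 ± 0.18 SE, adjusted p = 0.00496). Tlr4 fell with DTMB (-0.80 ± 0.24 SE, adjusted p = 0.049). Of 10 inhibitors, Ptpn11 was lower on HFD (-0.33 ± 0.084 SE, adjusted p = 0.0116) and Adar, which edits double-stranded RNA, was lower with DTMB (-0.34 ± 0.090 SE, adjusted p = 0.0333). On MCD diet Irf8 rose by 1.25 ± 0.21 (SE, adjusted p = 0.000675). Among the 10 kinases and transcription factors 4 fell (40%, against 21% of all genes), including Irf2 (-0.72 ± 0.14 SE, adjusted p = 0.00212) and the receptor kinase Tyk2 (-0.36 ± 0.096 SE, adjusted p = 0.0106). Upstream, 6 genes rose (42.9%, against 20.3% of all genes), among them Tlr4 (1.57 ± 0.28 SE, adjusted p = 0.00102). Mavs, the adaptor of the RNA sensors, fell (-0.52 ± 0.14 SE, adjusted p = 0.0114).

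A further list of 46 interferon-stimulated genes outside the 38 was read in the same comparisons. It too was chosen with earlier results of these data known. On HFD 30 were higher (65.2%, against 15.2% of all genes) and 1 lower, with the smallest p for the proteasome subunit Psmb9 (1.93 ± 0.20 SE, adjusted p = 4.9e-05), Shisa5 (0.83 ± 0.094 SE, adjusted p = 9.51e-05) and Mx1 (2.14 ± 0.28 SE, adjusted p = 0.00022). With DTMB on HFD 10 were lower (21.7%, against 6.04% of all genes) and none higher, led by Slfn9 (-0.85 ± 0.15 SE, adjusted p = 0.0106), Parp12 (-0.44 ± 0.10 SE, adjusted p = 0.02) and Znfx1 (-0.42 ± 0.10 SE, adjusted p = 0.0261). On MCD diet 5 were higher and 12 lower, 10.9% and 26.1% of the list against 20.3% and 21% of all genes, so the shares were below and near those of all genes, with Gm4951 (-1.32 ± 0.19 SE, adjusted p = 0.000234) and Helz2 (-0.91 ± 0.14 SE, adjusted p = 0.000333) lower and Ifitm1 (0.95 ± 0.17 SE, adjusted p = 0.00124) higher. With DTMB on MCD diet none passed. The interferon-gamma-induced GTPases were 15 genes such as Gbp10, Gbp6 and Irgm1. All were higher on HFD (100%, against 15.2% of all genes), with a median log2 fold change of 1.65. With DTMB on HFD 11 were lower (73.3%, against 6.04% of all genes). On MCD diet 2 were higher and 1 lower, 13.3% and 6.67% against 20.3% and 21% of all genes. Both shares on MCD diet were thus below those of all genes. Gbp10 had log2 fold changes of 3.60 ± 0.45 (SE, adjusted p = 0.00019) on HFD and -1.64 ± 0.37 (SE, adjusted p = 0.0191) with DTMB.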

How the data were processed

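Liver RNA was sequenced from TruSeq stranded polyA libraries. What the authors deposited are unnormalized integer counts by gene. HISAT2 2.1.0 on mm10, StringTie 2.1.3b, Trimmomatic 0.38 and FastQC 0.11.7 are named per the submitters' processing notes; settings and the handling of shared reads are not given in the sources used. Counts were tested with edgeR 4.0.16 (filterByExpr, TMM, quasi-likelihood F test) in R 4.3.3, each cohort alone with its 3 groups and both together for differences, with Benjamini-Hochberg adjustment over all genes tested and no fold cutoff. SEs come from the coefficient and its F statistic. P-values set each difference between groups against the spread between libraries within the groups.

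The members and lists were chosen with earlier results of these data known. Named were the first member of each role, the 6 members of smallest p for HFD, DTMB on HFD and MCD diet, the 4 for DTMB on MCD diet, members not called where most were, the 3 genes of smallest p in other lists, and detected ligands and receptors; Rsad2, Irf8, Tlr4, Mavs and the uncalled members set beside called ones were named after their values were seen. Alternatives were DESeq2 1.42.0, RLE factors, library size alone, no filter, CPM above 1 in 3 libraries, a replicate block, leaving out each library, and leaving out acinar libraries. Same-numbered libraries did not pair (r of -0.523 to 0.463 in the HFD cohort, -0.393 to 0.118 in the MCD cohort). Libraries of one group all differed beyond counting noise (chi-square over degrees of freedom at least 26). The tests were tried on data simulated with the means and spread of these libraries. Of genes changed 1.5-fold, 20.6% were recovered for HFD, 36% for DTMB on HFD, 11.1% for MCD diet and 4.08% for DTMB on MCD diet. For genes changed 2-fold the shares were 71.9%, 62.6%, 53.7% and 43.4%, so many changes of these sizes were missed in the simulation. Far fewer genes were changed there than were called in the data for HFD, DTMB on HFD and MCD diet. Fewer changed genes make the adjusted threshold stricter, so the shares for those comparisons may be too low. One gene of the pathway list is not reported here. Figures were drawn with matplotlib 3.10.9.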

Additional observations from a re-analysis of the deposited data

Results flagged for a closer look

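Among 152 groups of 4 libraries tested for a library far from the other 3, 15 were flagged, or 9.87%. The test was Dixon's, of the gap to the nearest over the whole range, in which chance flags about 1 in 20. The same libraries recur for each of the 38 members, so the flags are not independent and that rate is no yardstick for their number. Groups of 3 libraries, MCD DTMB among them, were not tested. In 12 of the 15 the library was normal-diet replicate 2 of the MCD cohort, which was high each time. It had 84.2 CPM of Irf7, against 22.2 CPM in the next library, 59.7 CPM of Ifih1, against 35.0 CPM, and 19.5 CPM of Samd9l, against 10.2 CPM. In the OAS family it had 7.31 CPM of Oas1a, 2.89 CPM of Oas1g, 3.79 CPM of Oas2 and 3.86 CPM of Oas3. It also had 15.8 CPM of Herc6, 6.61 CPM of Mx2, 6.48 CPM of Trim30a, 5.32 CPM of Ifi44 and 8.08 CPM of Xaf1. Of the other flags, HFD vehicle replicate 1 was high for Bst2 at 88.7 CPM, HFD DTMB replicate 2 was low for Ifit2 at 3.08 CPM, and MCD vehicle replicate 2 was high for Usp18 at 34.1 CPM, against 21.2 CPM in the next library.

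The diet effect differed between the HFD and the MCD cohort, by the test of the difference, for 12 members, and in each the HFD effect was the higher. The differences in log2 fold change were 0.99 for Stat2, 0.92 for Irf9, 1.81 for Ifit1, 2.29 for Ifit3, 2.46 for Ifit3b, 0.96 for Ifih1, 0.88 for Ddx58, 1.34 for Dhx58, 1.30 for Bst2, 1.66 for Rtp4, 0.85 for Ifi35 and 1.47 for Xaf1. Bst2, Dhx58, Ifi35, Ifih1, Ifit3, Ifit3b, Rtp4 and Stat2 kept the call in each of the 22 fits that left out one library.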

How the results depend on the processing

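Of 6495 values of members under the alternatives, 6149 stayed on their side of the threshold, 231 lost a call and 115 gained one. No member called with all libraries changed sign, but 319 values that passed in neither fit did. Members called for HFD against normal diet (29) numbered 7 without the acinar libraries, where a single normal-diet library remains and its spread is taken from the other groups, and 24 to 30 when one library was left out. For DTMB on HFD (13), 22 were called with library size alone, 7 with no filter, 7 with the replicate block and 0 without the acinar libraries, and 3 to 15 with one library left out. DESeq2 called 18. For HFD DTMB against normal diet (12), 7 were called without the acinar libraries, against the same single normal-diet library, and 10 to 15 with one library left out. For MCD vehicle against normal diet (8), 18 were called without both high libraries and 4 to 14 with one left out. For MCD DTMB against normal diet (4), 7 were called with library size alone, 7 without both high libraries and 3 to 9 with one left out. For the difference between diets (12), 6 were called with library size alone, 1 without the acinar libraries, with that single library in the HFD arm, and 8 to 16 with one left out. No member was called for DTMB on MCD diet or for the difference between DTMB effects under any alternative run.

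Medians over members changed sign where they lay near 0. For DTMB on MCD diet the median was -0.0063 with the replicate block, -0.31 without both high libraries, and from -0.31 (without DTMB replicate 1) to 0.28 with one library left out. For MCD vehicle it was -0.14 without the acinar libraries, and from -0.15 to 0.51 with one library left out, negative without normal-diet replicate 1 (-0.15) or 4 (-0.14) and without vehicle replicate 2 (-0.098) or 3 (-0.079). For MCD DTMB against normal diet it was from -0.36 (without DTMB replicate 1) to 0.54 (without normal-diet replicate 2). Over all genes, DTMB on HFD gave 1978 calls, 1225 with the replicate block, 0 without the acinar libraries and 483 to 2562 with one library left out. HFD against normal diet gave 4332 calls and 655 without the acinar libraries, HFD DTMB against normal diet 4554 and 1022, and the difference between diets 5847 and 2285. MCD DTMB against normal diet gave 5230 calls and 3297 without both high libraries, DTMB on MCD diet 1 and, by DESeq2, 8. With library size alone, higher against lower calls were 3361 against 1030 on HFD, 406 against 2393 for DTMB on HFD and 7683 against 1170 on MCD diet, where the median of all genes stood at 0.14, -0.17 and 0.47. The same scaling gave 5803 against 1097 for MCD DTMB against normal diet and 1775 against 4896 for the difference between diets. The replicate block moved no other count of members by over 1.5 times. The cause of these shifts was not tested, beyond fewer libraries, and for HFD a normal-diet arm of 1, being fitted.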

Other observations

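The spread of the members within a group depended on the cohort. In the HFD cohort the median coefficient of variation over members was 14.8% with DTMB, 17.4% with vehicle and 18.4% on normal diet, against 12.5%, 11.2% and 12.3% for all genes tested. In the MCD cohort the coefficient of variation of single members reached 144% on normal diet. Plasmacytoid dendritic cell markers, 7 genes of the cell type best known for making type I interferon, summed to 153, 45.6 and 85.7 CPM in MCD DTMB livers, 54.5, 135, 104 and 33.7 CPM in MCD vehicle livers and 10.3 to 14.1 CPM in normal-diet livers. In the HFD cohort the sums were 10.4 to 25.9 CPM with DTMB, 20.6 to 55.1 CPM with vehicle and 10.6 to 30.8 CPM on normal diet. These sums follow Ly6d, which had 142, 36.9 and 78.9 CPM in MCD DTMB livers, 45.3, 123, 93.5 and 24.3 CPM in MCD vehicle livers and 0.31 to 0.74 CPM in their normal-diet livers. On MCD diet 2 of the 7 markers were called higher (28.6%, against 20.3% of all genes tested). Log2 fold changes over the 7 ran from -2.09 to 8.09. The defining markers Siglech (at most 0.63 CPM in MCD vehicle livers) and Ccr9 were not called. Of these 7 markers, 1 had no counts in the normal-diet libraries of the MCD cohort. B and plasma cell markers reached 180 CPM in HFD vehicle replicate 2, against 6.83 to 12.4 CPM in the other vehicle libraries.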
